A study of Mus musculus with 12 samples.

Results

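The comparison asks what loss of Kcnip3 did to hippocampal transcripts in mice that carry the 5xFAD transgenes. It sets the 3 libraries labelled Kcnip3 KO-5xFAD (genotype 5XFAD/Kcnip3 -/-) against the 3 labelled 5xFAD (genotype 5XFAD, Kcnip3 intact), which are 6 of the 12 libraries of the series, and covers all genes. The other 6 libraries, 3 WT and 3 Kcnip3 KO, carry no 5xFAD transgenes by label and were used for the spread between libraries and for the same loss of Kcnip3 without the transgenes. All animals were adults, and all RNA came from freshly dissected hippocampus, with the opposite hemisphere used for proteomics. By label both groups compared carry the transgenes, and 1 knockout library goes against that, as described below. The age, the sex, the strain and the Kcnip3 allele are not given here in the labels, and nothing in them says whether the 3 libraries of a group are 3 animals, so p-values measure the spread between libraries only.

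Kcnip3 encodes KChIP3, a calcium-binding protein also called DREAM and calsenilin. It binds Kv4 potassium channels at the membrane, binds presenilins, which cut the amyloid precursor protein, and in the nucleus represses genes that hold a DRE, a short motif with the core letters GTCA, from which calcium releases it. In the hippocampus Kv4 channels set the excitability of dendrites, and DREAM targets include activity-regulated genes such as Fos. The 5xFAD line carries mutant human transgenes of familial Alzheimer's disease, APP among them, under Thy1 promoter sequences, which are active in neurons, and develops amyloid plaques surrounded by activated microglia and astrocytes.

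Kcnip3 (ENSMUSG00000079056, chromosome 2, 127456498 to 127522094, GRCm38) was at 139, 156 and 138 CPM in 5xFAD 1 to 3 and 84.9, 68.7 and 70.1 CPM in Kcnip3 KO-5xFAD 1 to 3, where CPM is counts per 1e+06 counts of the library after TMM scaling. The groups did not overlap, and every knockout library kept counts on the gene. Which exons hold the remaining reads was not analysed here. Its log2 fold change was -0.95 ± 0.20 (SE), and it missed the threshold over all genes (adjusted p = 0.245 in edgeR's quasi-likelihood test). The adjusted p was 0.00111 without the library labelled Kcnip3 KO 3, which enters this contrast only through the spread and held 125 CPM of Kcnip3 against 71.4 and 63.4 CPM in Kcnip3 KO 1 and 2.

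Thy1, which reads out the promoter sequences of the transgenes, was at 2870, 4236 and 2949 CPM in the 5xFAD libraries, against 3381, 926 and 2592 CPM in those of Kcnip3 KO-5xFAD. The low value belongs to the library labelled Kcnip3 KO-5xFAD 2 and lies near the 747 to 887 CPM of WT 1, WT 2 and the Kcnip3 KO libraries. The same library held 26.2 CPM of Trem2, the microglial lipid receptor, and 1.00 CPM of Cst7, an inhibitor of cysteine proteases in plaque-associated microglia, against 163 and 128 CPM and 66.6 and 55.9 CPM in the other Kcnip3 KO-5xFAD libraries. Its Gfap, the intermediate filament of astrocytes, was at 551 CPM, against 2872 and 1571 CPM. Its Kcnip3 was low like that of the rest of its group. Mouse App had overlapping groups, at 1133, 964 and 1084 CPM in the 5xFAD libraries, against 1026, 1000 and 1139 CPM in those of Kcnip3 KO-5xFAD. Groups were kept as labelled, so the comparison as labelled can also carry a difference in the transgenes. Counts of calls, list medians and the genes that moved most are also given without the library labelled Kcnip3 KO-5xFAD 2. In the WT group the library labelled WT 3 held 2277 CPM of Thy1, so it also goes against its label.

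**Figure D1:**
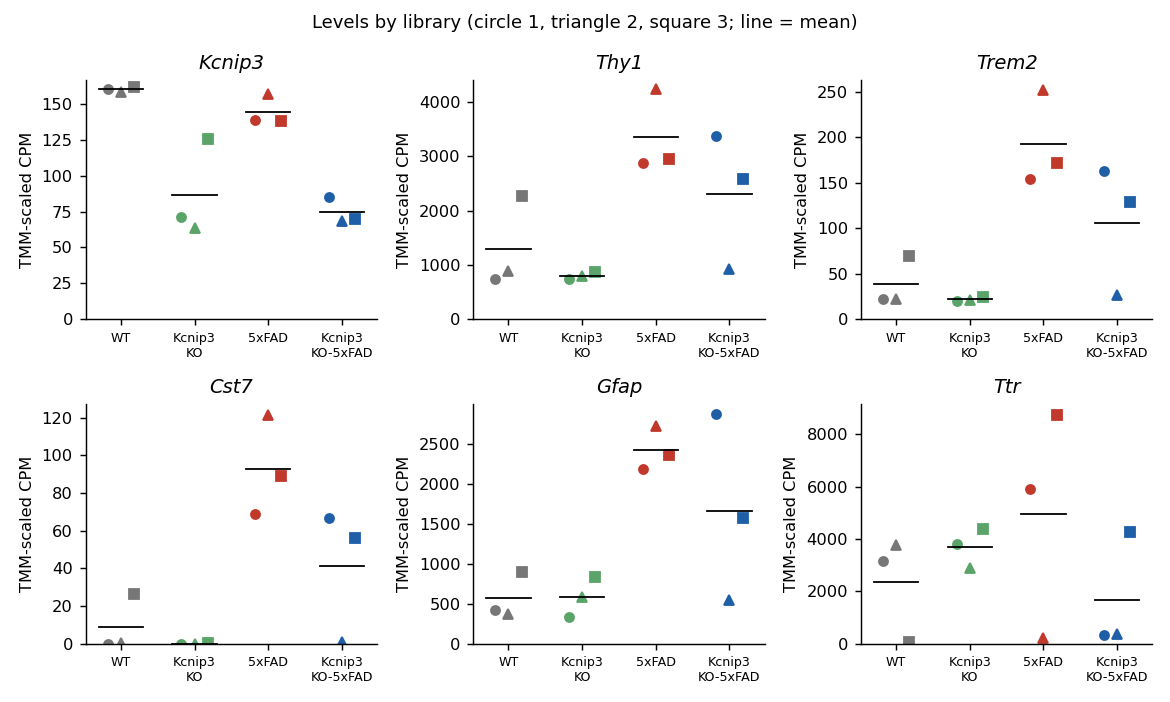
Level in TMM-scaled CPM (vertical axes, linear from 0) of Kcnip3, Thy1, Trem2, Cst7, Gfap and Ttr in each of the 12 libraries, by genotype (horizontal axes); marker shapes give the replicate number and lines the group means. Kcnip3 is lower in both knockout groups, the library labelled Kcnip3 KO-5xFAD 2 has Thy1, Trem2, Cst7 and Gfap far below the rest of its group, and Ttr is low in 5xFAD 2, Kcnip3 KO-5xFAD 1, Kcnip3 KO-5xFAD 2 and WT 3.

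The 6 libraries held 7664407 to 11310714 counts, so that 3 counts corresponded to 0.265 to 0.391 CPM, and such limits cover counting error only. Mitochondrial genes took 3.58% to 3.74% of each 5xFAD library and 4.24% to 5.47% of each Kcnip3 KO-5xFAD library. The library 5xFAD 2 had the fewest genes with counts, 21673.

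Of 15905 genes tested, 11 passed an adjusted p of 0.05 (0.0692%), 5 higher and 6 lower in Kcnip3 KO-5xFAD. On chromosome 2 within 10 Mb of Kcnip3 lay 7 of them, Pla2g4e, Ivd, Bub1b, Tgm7, Strc, Mfap1b and Eif3j1. The other 4 were Eif3j2, Gm3650, Pcna-ps2 and Lbhd2. Each of the 11 genes had groups without overlap, as had 2599 of all tested genes (16.3%). Here and below, lack of overlap adds no support for genes named for a small p in the same libraries. Without the library labelled Kcnip3 KO-5xFAD 2, 8 of 16182 genes passed (0.0494%). They included Eif3j2, Pla2g4e, Gm3650, Pcna-ps2, Eif3j1, Mfap1b and Ivd, while Strc, Bub1b, Lbhd2 and Tgm7 had adjusted p-values of 0.109, 0.111, 0.109 and 0.214 in edgeR, and Fabp7 joined them.

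**Figure D2:**
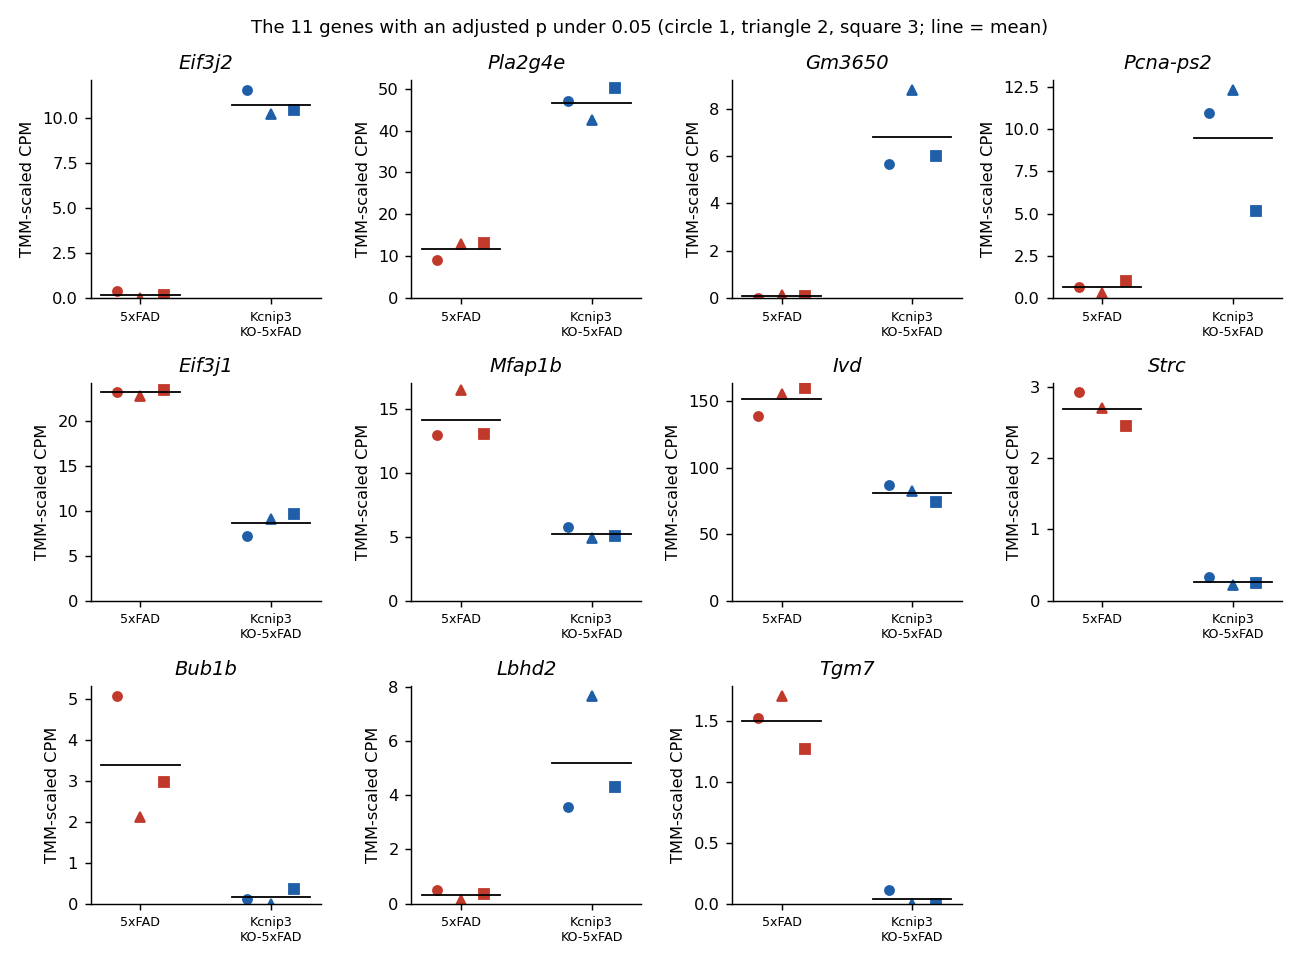
Level in TMM-scaled CPM (vertical axes, linear from 0) of the 11 genes with an adjusted p under 0.05, in the 3 libraries of 5xFAD and the 3 of Kcnip3 KO-5xFAD; marker shapes give the replicate number and lines the group means. No gene has overlapping groups, and Eif3j2, Gm3650, Bub1b and Tgm7 lie near 0 in one group.

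Pla2g4e, a calcium-dependent enzyme that makes N-acyl phosphatidylethanolamines, was the chromosome 2 gene that rose. It was at 9.14, 12.9 and 13.1 CPM in the 5xFAD libraries, against 47.1, 42.6 and 50.1 CPM in those of Kcnip3 KO-5xFAD, a log2 fold change of 1.98 ± 0.17 (adjusted p = 7.95e-05 in edgeR). The lowest knockout library held over 3 times the highest 5xFAD library. The gene (ENSMUSG00000050211) lies on the minus strand at 120166412 to 120245335, 7.21 Mb proximal to Kcnip3. Of the 23 alternative settings and left-out libraries tried, it passed in 23.

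Ivd, the mitochondrial dehydrogenase of leucine breakdown (118861954 to 118882909), fell from 139, 156 and 160 CPM to 86.9, 82.7 and 73.9 CPM. Its log2 fold change was -0.90 ± 0.12 (adjusted p = 0.00614 in edgeR), the smallest of the 11, in the gene with the highest level. Bub1b, the kinase BubR1 of the spindle checkpoint (118598211 to 118641591), fell from 5.08, 2.13 and 2.99 CPM to 0.111, 0 and 0.368 CPM (adjusted p = 0.0246 in edgeR). That is 88 counts over 5xFAD against 4 over Kcnip3 KO-5xFAD, or 22.2 times as many at equal depth. Strc, which encodes stereocilin, a protein of inner-ear hair bundles (121363728 to 121387168), fell from 2.92, 2.69 and 2.44 CPM to 0.333, 0.222 and 0.246 CPM (log2 fold change -3.26 ± 0.48, adjusted p = 0.0142 in edgeR). Tgm7, a transglutaminase (121093565 to 121109795), had 38 counts in 5xFAD and 1 in Kcnip3 KO-5xFAD (adjusted p = 0.0299 in edgeR). These low genes rest on few reads: leaving out any 1 of the 6 libraries took Tgm7 above the threshold, and leaving out any 1 of the 3 Kcnip3 KO-5xFAD libraries did so for Bub1b and Strc.

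The promoters of 3 of these genes are shown because DREAM acts through DRE sites and because Pla2g4e rose while Ivd and Strc fell. Each is the stretch from 250 bases before to 50 bases after the start in RefSeq on GRCm38.p6, 5′ to 3′ on the gene's strand. The RefSeq start of Strc lies inside the gene span given above, so its stretch is not at the 5′ end of that span. Capitals mark the core GTCA or its reverse complement TGAC, searched on both strands.
Pla2g4e promoter, chr2:120245286-120245585, minus strand: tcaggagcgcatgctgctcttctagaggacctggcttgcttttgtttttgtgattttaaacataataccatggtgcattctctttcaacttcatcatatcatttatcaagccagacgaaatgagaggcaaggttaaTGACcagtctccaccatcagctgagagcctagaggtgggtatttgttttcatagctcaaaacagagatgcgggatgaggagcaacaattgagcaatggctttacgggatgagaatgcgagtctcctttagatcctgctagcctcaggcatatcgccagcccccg
Ivd promoter, chr2:118861744-118862043, plus strand: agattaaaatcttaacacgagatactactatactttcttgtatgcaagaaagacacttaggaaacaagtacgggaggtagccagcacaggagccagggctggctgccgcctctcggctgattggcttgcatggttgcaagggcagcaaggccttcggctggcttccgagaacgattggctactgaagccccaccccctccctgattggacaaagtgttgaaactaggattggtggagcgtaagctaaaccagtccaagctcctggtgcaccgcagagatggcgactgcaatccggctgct
Strc promoter, chr2:121380891-121381190, minus strand: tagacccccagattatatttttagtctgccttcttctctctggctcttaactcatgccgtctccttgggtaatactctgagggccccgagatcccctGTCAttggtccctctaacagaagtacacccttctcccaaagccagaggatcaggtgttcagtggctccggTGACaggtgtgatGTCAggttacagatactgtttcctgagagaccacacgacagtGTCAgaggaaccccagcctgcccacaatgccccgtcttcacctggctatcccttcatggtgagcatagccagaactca
Pla2g4e held 1 match, Ivd 0 and Strc 4. Promoters of some called genes were left out of the search. Among the other called genes searched, Tgm7 held 3, Mfap1b 2, Eif3j1 2, Bub1b 1 and Lbhd2 0. The core is short, and 85.2% of 32851 RefSeq promoters of the same length hold it, with a median of 2 matches, so the letters do not set these genes apart, and a match is not a site.

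Pcna-ps2 is a processed pseudogene of Pcna, the sliding clamp of DNA replication, and lies on chromosome 19 at 9283380 to 9284160 (ENSMUSG00000067608). It rose from 0.635, 0.284 and 0.996 CPM to 10.98, 12.33 and 5.16 CPM (log2 fold change 3.78 ± 0.41, adjusted p = 6.34e-04 in edgeR). Pcna itself, on chromosome 2 at 132249162 to 132253314, 4.73 Mb distal to Kcnip3, was at 45.1, 43.3 and 41.9 CPM in the 5xFAD libraries, against 28.3, 32.6 and 34.9 CPM in those of Kcnip3 KO-5xFAD. Its log2 fold change was -0.44 ± 0.10 and did not pass (adjusted p = 0.29 in edgeR), although the groups did not overlap. The summed level of both copies was 44.1 ± 1.47 CPM (SD, n = 3) in 5xFAD and 41.4 ± 3.06 CPM in Kcnip3 KO-5xFAD. Over the libraries without the transgenes by label, this sum spanned 41.7 to 46.7 CPM for WT. It spanned 36.1 to 41.3 CPM for Kcnip3 KO, without overlap.

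The copies differ at 6 of 781 aligned bases in the reference (99.23% identity), counted from 1 at the start codon of Pcna with the Pcna base first: A144G, A177C, G424A, A586G, G618T and G699A. The stretches around 4 of these positions show how few letters separate a read of one copy from a read of the other, with the differing bases in capitals.
Pcna 132 to 189: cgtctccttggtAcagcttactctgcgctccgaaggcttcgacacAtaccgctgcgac
Pcna-ps2 132 to 189: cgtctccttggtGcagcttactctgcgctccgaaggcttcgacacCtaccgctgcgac
Pcna 574 to 630: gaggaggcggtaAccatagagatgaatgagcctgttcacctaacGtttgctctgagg
Pcna-ps2 574 to 630: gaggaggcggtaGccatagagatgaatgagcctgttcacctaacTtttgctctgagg
A read within the 781 aligned bases that covers none of these positions is the same in both copies, so the split of such counts is uncertain. Parts of Pcna outside the aligned bases were not compared, and which reads carry which base was not analysed here.

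A second pair is complete in the reference. Mfap1a and Mfap1b, neighbouring genes for a protein of the spliceosome, have coding sequences that are identical over 1320 bases. Mfap1b (121460235 to 121474067) fell from 12.95, 16.45 and 13.04 CPM to 5.77, 4.89 and 5.03 CPM (log2 fold change -1.43 ± 0.18, adjusted p = 0.00372 in edgeR). Mfap1a was at 11.1, 11.8 and 13.3 CPM in the 5xFAD libraries, against 17.4, 20.7 and 18.4 CPM in those of Kcnip3 KO-5xFAD, a log2 fold change of 0.64 ± 0.14 that did not pass (adjusted p = 0.255). Together they were at 26.2 ± 2.11 and 24.1 ± 1.30 CPM (SD, n = 3), so in this comparison the sum moved less than either copy did. That did not hold for the libraries without the transgenes by label. There the sum fell from 32.3, 28.9 and 34.5 CPM (WT 1 to 3) to 23.2, 21.1 and 23.3 CPM (Kcnip3 KO 1 to 3). Mfap1b had a log2 fold change of -1.47 ± 0.18 between those groups, and Mfap1a one of 0.044 ± 0.14.

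The calls near Kcnip3 lay on its proximal side. Within 10 Mb of Kcnip3, 7 of 213 tested neighbours were called (3.29%), against 0 of 1029 on the rest of chromosome 2 and 4 of 14662 on other chromosomes. They lay 4 to 10 Mb proximal to Kcnip3, with 2 of 29, 3 of 43 and 2 of 20 tested genes called in successive bins of 2 Mb, and within 5 Mb of Kcnip3 0 of 109 were. At an unadjusted p under 0.05 the share was 20.7% within 10 Mb (44 genes, 23 higher and 21 lower), 11.2% on the rest of chromosome 2 and 10.2% on other chromosomes, against 10.4% of all tested genes. Of these 44 neighbours 32 lay proximal and 12 distal. Single libraries moved the count of 7: it was 4 leaving out 5xFAD 1, Kcnip3 KO-5xFAD 1 or the library labelled Kcnip3 KO-5xFAD 2, 3 leaving out 5xFAD 3 or Kcnip3 KO-5xFAD 3, and 2 leaving out both WT 3 and the library labelled Kcnip3 KO-5xFAD 2.

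Among the neighbours that did not pass, Haus2, a subunit of the augmin complex of the spindle, was at 13.5, 14.9 and 14.8 CPM in the 5xFAD libraries, against 9.87, 8.22 and 7.49 CPM in those of Kcnip3 KO-5xFAD (log2 fold change -0.75 ± 0.14, adjusted p = 0.138 in edgeR). The pseudogene Bambi-ps1 had a log2 fold change of 1.61 ± 0.34 and Gm14018 one of -1.76 ± 0.48. Cd59a, a membrane inhibitor of complement, lies farther out on chromosome 2 at 104095801 to 104115354. It was at 14.6, 6.67 and 17.5 CPM in the 5xFAD libraries, against 3.55, 2.89 and 3.93 CPM in those of Kcnip3 KO-5xFAD (-1.92 ± 0.38, adjusted p = 0.168), with no overlap between the groups.

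**Figure D3:**
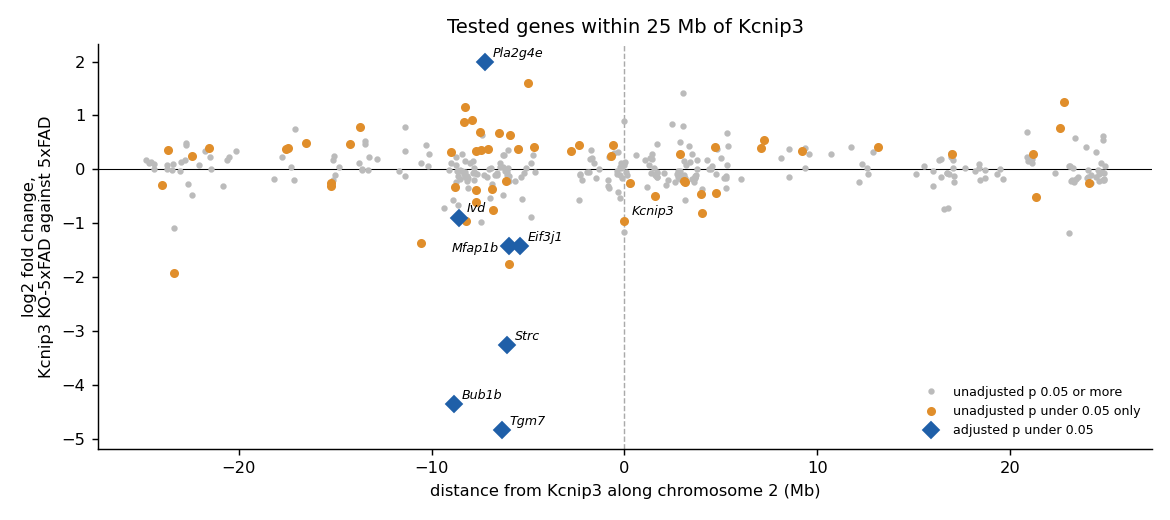
Log2 fold change in Kcnip3 KO-5xFAD against 5xFAD (vertical axis) of each tested gene within 25 Mb of Kcnip3, by its distance along chromosome 2 in Mb (horizontal axis, negative is proximal). Blue diamonds are the genes with an adjusted p under 0.05, all 7 between 4 and 10 Mb proximal, orange points have only an unadjusted p under 0.05, and Kcnip3 stands at 0.

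Eif3j1 and Eif3j2 encode subunit J of the translation initiation factor eIF3, and both passed, in opposite directions. Eif3j1 (chromosome 2, 122028546 to 122056598) fell from 23.2, 22.8 and 23.5 CPM to 7.21, 9.11 and 9.70 CPM (log2 fold change -1.42 ± 0.15, adjusted p = 6.34e-04 in edgeR). Eif3j2 (ENSMUSG00000043424, chromosome 18, 43475418 to 43477796) rose from 0.381, 0 and 0.181 CPM to 11.5, 10.2 and 10.4 CPM, which is 5 counts against 281 (5.70 ± 0.39, adjusted p = 7.29e-06). Over 784 aligned coding bases the copies have 0 mismatches. Their sum was 23.4 ± 0.46 CPM in the 5xFAD libraries, against 19.4 ± 0.701 CPM in those of Kcnip3 KO-5xFAD (SD, n = 3), with no overlap between the groups. Gm3650, an unprocessed pseudogene beside Eif3j2 (43472816 to 43475169), rose with it, from 0, 0.142 and 0.0905 CPM to 5.66, 8.78 and 6.02 CPM (6.23 ± 0.55, adjusted p = 7.95e-05). It had 2 counts in 5xFAD and 179 in Kcnip3 KO-5xFAD.

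Lbhd2 (chromosome 12, 111406809 to 111412090) rose from 0.508, 0.142 and 0.362 CPM to 3.55, 7.67 and 4.30 CPM (log2 fold change 3.85 ± 0.61, adjusted p = 0.0271 in edgeR). It had 9 counts in 5xFAD and 136 in Kcnip3 KO-5xFAD. The libraries labelled WT held 2.45, 1.60 and 0.836 CPM of it, the last in WT 3, whose Thy1 goes against its label, against 1.26, 2.66 and 0.575 CPM in those of Kcnip3 KO, and the ranges overlapped.

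Kcnip3 KO against WT measures the same loss in 6 other libraries, and 8 of 15905 genes passed there (0.0503%). The library labelled Kcnip3 KO 3, with 125 CPM of Kcnip3, and the library labelled WT 3 are part of it. Of the 11 genes, 10 had the same sign there, all but Lbhd2 (log2 fold change -0.13), whereas 53.8% of all tested genes did. Pla2g4e had a log2 fold change of 2.19 ± 0.17 (adjusted p = 2.34e-05 in edgeR) and Eif3j1 one of -1.48 ± 0.15. Of the 44 neighbours, 39 had the same sign, against 953 of all 1649 genes with an unadjusted p under 0.05 in the 5xFAD comparison (57.8%). Of the 24 neighbours with such a p in both backgrounds 24 did. Beyond 10 Mb, 49 of 68 genes with such a p in both did (72.1%). The contrasts share no library, but they share the estimate of the spread.

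**Figure D4:**
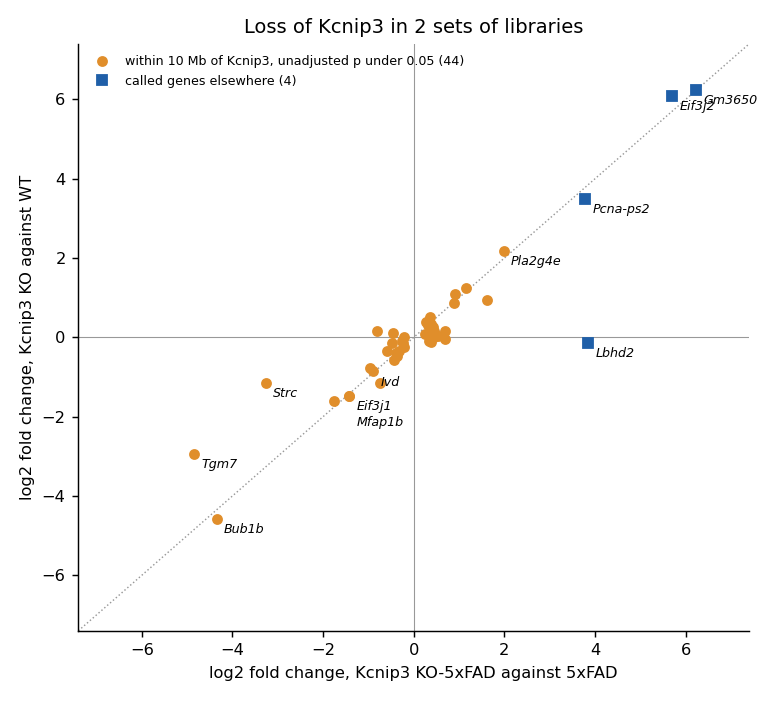
Log2 fold change on loss of Kcnip3 with the 5xFAD transgenes (horizontal axis) and without them (vertical axis) for 44 neighbours of Kcnip3 with an unadjusted p under 0.05 and for the 4 called genes elsewhere; the dotted line marks equal values. Of the 44 neighbours 39 have the same sign on both axes. Lbhd2 lies off the line at 3.85 and -0.13, as do Strc at -3.26 and -1.15 and Tgm7 at -4.84 and -2.93.

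The difference between the backgrounds was tested as an interaction, and edgeR called 0 genes (smallest adjusted p 0.43), with 836 at an unadjusted p under 0.05; limma-voom called 0 and DESeq2 6. The interaction p was 5.4e-05 for Fabp7 and 2.63e-04 for Lbhd2, both unadjusted.

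Among genes that did not pass, Ucp2, a carrier of the inner mitochondrial membrane, had the smallest p. It was at 87.1, 96.7 and 108 CPM in the 5xFAD libraries, against 64.8, 45.6 and 62.7 CPM in those of Kcnip3 KO-5xFAD (log2 fold change -0.75 ± 0.13, adjusted p = 0.059 in edgeR). The pseudogene Gm12751 (chromosome 4) had levels of 3.94, 3.69 and 3.71 CPM in the 5xFAD libraries, against 0, 0.111 and 0 CPM in those of Kcnip3 KO-5xFAD (adjusted p = 0.0969). Fabp7, the lipid-binding protein of radial glia and astrocytes, was at 22.6, 31.6 and 25.8 CPM in the 5xFAD libraries, against 73.9, 38.6 and 62.9 CPM in those of Kcnip3 KO-5xFAD, with the lowest of these in the library labelled Kcnip3 KO-5xFAD 2. Its log2 fold change was 1.13 ± 0.22 (adjusted p = 0.153) with all libraries and 1.35 (adjusted p = 0.00424) without that library. Clcn3, an endosomal chloride-proton exchanger (0.59 ± 0.12), Gja1, the astrocyte gap junction protein connexin 43 (0.59 ± 0.12), Thoc2, of the TREX mRNA export complex (0.95 ± 0.19), and Ptbp2, a neuronal splicing regulator (0.56 ± 0.12), had adjusted p-values of 0.153 to 0.241 and groups that did not overlap. So had 16.3% of all tested genes, and these genes were chosen by their small p, so the lack of overlap adds no support.

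None of the 525 tested genes of the 28 lists below passed with all 12 libraries, Kcnip3 included, so their values are given without a direction of change. The median log2 fold change of all tested genes was -0.00422, with 49.2% positive. An unadjusted p under 0.05 with a higher level in Kcnip3 KO-5xFAD was found for 1025 genes (6.44%) and with a lower level for 624 (3.92%). Without the library labelled Kcnip3 KO-5xFAD 2 these shares were 5.41% and 4.09%. Other libraries moved the count more. In both directions together 1649 of 15905 genes had such a p, and 1538 of 16182 without the library labelled Kcnip3 KO-5xFAD 2. There were 841 of 16218 without 5xFAD 2 and 2923 of 16197 without 5xFAD 1. The list counts at this p are not given here without those 5xFAD libraries.

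Of the 9 genes of the KChIP and Kv4 complex, Kcnip3 was the one with an unadjusted p under 0.05 and a lower level, and the pore subunit Kcnd2 (Kv4.2) the one with a higher level. Kcnd2 was at 27.2, 25.2 and 26.2 CPM in the 5xFAD libraries, against 36.8, 46.7 and 28.7 CPM in those of Kcnip3 KO-5xFAD (log2 fold change 0.52 ± 0.14, adjusted p = 0.411 in edgeR), or 0.32 without the library labelled Kcnip3 KO-5xFAD 2. Kcnd3 (Kv4.3) had a log2 fold change of 0.42 ± 0.20 and Kcnd1 (Kv4.1) one of 0.0042. Of the other KChIPs, Kcnip1 had one of 0.31 ± 0.18, Kcnip2 one of -0.055 ± 0.17 and Kcnip4 one of 0.26 ± 0.14, the last 2 being -0.24 and 0.17 leaving out the library labelled Kcnip3 KO-5xFAD 2. The auxiliary subunits Dpp6 and Dpp10 had -0.015 ± 0.11 and 0.37 ± 0.37, or -0.099 and 0.57 leaving it out. Other libraries also moved them: Dpp10 had 0.93, 0.13 and 0.16 without 5xFAD 1, 2 and 3. Dpp6 turned positive without 5xFAD 2, 5xFAD 3 or Kcnip3 KO-5xFAD 3. On the per-length scale of the authors' TPM, Kcnip2 was at 182, 234 and 217 TPM in 5xFAD, above Kcnip3 at 128, 124 and 120 TPM, and Kcnip4 was at 38.2, 22.7 and 28.8 TPM and Kcnip1 at 10.6, 8.76 and 8.30 TPM. In Kcnip3 KO-5xFAD, Kcnip3 was at 78.0, 60.2 and 65.6 TPM and remained between Kcnip2 and Kcnip4.

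Of 15 genes reported as DREAM targets 13 were tested, and 1 had an unadjusted p under 0.05, the sodium-calcium exchanger Slc8a3 (log2 fold change 0.46 ± 0.18, adjusted p = 0.439 in edgeR). The transcription factor Fos was at 25.3, 7.66 and 11.2 CPM in the 5xFAD libraries, against 38.3, 25 and 19.2 CPM in those of Kcnip3 KO-5xFAD (0.91 ± 0.41, adjusted p = 0.483), with overlapping groups. The opioid precursor Pdyn was at 23.6, 15.6 and 14.6 CPM and at 7.87, 17.9 and 18.4 CPM. The median of the list was 0.24, or 0.078 without the library labelled Kcnip3 KO-5xFAD 2, and -0.28 in Kcnip3 KO against WT.

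Activity-regulated genes (30 tested) had a median log2 fold change of 0.28, of which 27 were positive and 1 was at an unadjusted p under 0.05, the kinase Sik1 (log2 fold change 0.64 ± 0.19). Without the library labelled Kcnip3 KO-5xFAD 2 the median was 0.11 with 18 positive. In Kcnip3 KO against WT it was -0.32 with 20 negative. An unadjusted interaction p under 0.05 was found for 11 of the 30, against 836 of all 15905 tested genes. Among the 11 were Fos (-1.91 in Kcnip3 KO against WT), Nr4a1 (0.47 and -1.33) and Egr1 (0.57 and -1.23). Kcnip3 KO-5xFAD 2 and WT 3, which go against their labels, enter this interaction. No interaction count for the list without them is given here. The summed level of the list was at 2032, 2165 and 1992 CPM for WT, 1729, 1116 and 1149 CPM for 5xFAD, 1576, 1856 and 1145 CPM for Kcnip3 KO-5xFAD and 1295, 900.4 and 2085 CPM for Kcnip3 KO, so it varied less within WT than within the other groups.

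Of the 16 genes of App processing, 1 had an unadjusted p under 0.05. It was Psenen, the γ-secretase subunit PEN-2, at 41.7, 51.9 and 49.1 CPM in the 5xFAD libraries, against 37.4, 39.7 and 35.7 CPM in those of Kcnip3 KO-5xFAD (log2 fold change -0.34 ± 0.11, adjusted p = 0.426 in edgeR). The list's median was 0.023. Psen2, whose protein KChIP3 binds, had a log2 fold change of 0.037 ± 0.19, and App one of -0.0074 ± 0.097.

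The list of excitatory synapses and long-term potentiation had a median of 0.17 over 48 members, 8 with a higher and 1 with a lower level at an unadjusted p under 0.05. Plcb1, the phospholipase C of metabotropic signalling, was at 53.3, 51.3 and 47.2 CPM in the 5xFAD libraries, against 75.3, 81.0 and 64.6 CPM in those of Kcnip3 KO-5xFAD (log2 fold change 0.54 ± 0.14, adjusted p = 0.411 in edgeR). The adhesion gene Nlgn1 had 0.59 ± 0.17. Without the library labelled Kcnip3 KO-5xFAD 2 the counts were 5 and 4 and the median 0.088. Plcb1 and Snap25 lie within 10 Mb of Kcnip3. Snap25, the SNARE protein of vesicle release, was at 965, 823 and 875 CPM in the 5xFAD libraries, against 1188, 1065 and 1126 CPM in those of Kcnip3 KO-5xFAD (0.34 ± 0.11), with no overlap, while the median of the 22 genes of synaptic vesicle release was -0.012, 2 of them with a higher level at an unadjusted p under 0.05.

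Genes of GABAergic neurons had 6 of 19 members with a higher level at an unadjusted p under 0.05 and 0 with a lower one, with a median of 0.25, or 0.19 leaving out the library labelled Kcnip3 KO-5xFAD 2, where 5 were higher and 2 lower. The GABA-synthesising enzyme Gad2 was at 66.6, 65.5 and 59.7 CPM in the 5xFAD libraries, against 93.9, 74.2 and 80.8 CPM in those of Kcnip3 KO-5xFAD (log2 fold change 0.38 ± 0.11, adjusted p = 0.426 in edgeR). Gad1, which encodes another such enzyme, was at 408 CPM in Kcnip3 KO-5xFAD 1, above the 244 and 221 CPM of the rest of its group, and had 0.62 ± 0.19, or 0.29 leaving out Kcnip3 KO-5xFAD 1. Of 35 calcium channels, pumps and stores, 8 had a higher and 1 a lower level by the same measure (5 and 1 leaving out the library labelled Kcnip3 KO-5xFAD 2), with a median of 0.14. Cacna2d1, an auxiliary channel subunit, was at 33.7, 29.9 and 28.3 CPM in the 5xFAD libraries, against 47.1, 52.0 and 53.5 CPM in those of Kcnip3 KO-5xFAD (0.73 ± 0.20), and the exchanger Slc8a1 had 0.41 ± 0.11. Of 27 other potassium channels 3 had a higher level, led by Kcnh7 (0.71 ± 0.18), with a median of 0.075.

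Plaque-associated microglial genes had a lower mean in Kcnip3 KO-5xFAD for 25 of 28, the median was -0.51, and 5 had an unadjusted p under 0.05. In bulk tissue, fewer microglia and less RNA per microglia cannot be told apart. Apoe, an astrocytic and microglial lipid carrier, was at 4388, 6613 and 5332 CPM in the 5xFAD libraries, against 4285, 3345 and 3935 CPM in those of Kcnip3 KO-5xFAD (log2 fold change -0.50 ± 0.15, adjusted p = 0.426 in edgeR), with no overlap between the groups. The lysosomal protease Ctsl had -0.43 ± 0.14 and the tetraspanin Cd63 -0.37 ± 0.13, which became -0.24 and -0.23 leaving out the library labelled Kcnip3 KO-5xFAD 2. Tyrobp, the adaptor of Trem2, was at 170, 293 and 195 CPM in the 5xFAD libraries, against 167, 36.8 and 146 CPM in those of Kcnip3 KO-5xFAD. Without the library labelled Kcnip3 KO-5xFAD 2 the median was -0.26, 22 were lower and 3 had an unadjusted p under 0.05, and Apoe had -0.41. The summed level of the list was 11360 to 16000 CPM in the 5xFAD libraries, against 11150, 8520 and 10260 CPM in those of Kcnip3 KO-5xFAD.

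Other glial lists also moved when that library was left out. Of 24 lysosomal genes 11 had a lower level at an unadjusted p under 0.05 and 0 a higher one, with a median of -0.42; without the library labelled Kcnip3 KO-5xFAD 2 there were 5 and the median was -0.22. The sterol transporter Npc2 was at 174, 204 and 197 CPM in the 5xFAD libraries, against 159, 96.5 and 142 CPM in those of Kcnip3 KO-5xFAD (-0.54 ± 0.15, adjusted p = 0.411 in edgeR). The β-galactosidase Glb1 (-0.41 ± 0.12) and the cathepsin Ctsa (-0.42 ± 0.13) were next. Homeostatic microglial genes had a median of -0.31, or -0.12 without that library, with Tmem119 at -0.32 ± 0.13, and genes of complement and antigen presentation had -0.42, or -0.039 without it, with C1qc at -0.74 ± 0.32, or -0.41 without it. Reactive astrocyte genes had a median of -0.12, which turned to 0.12 without it. Interferon response genes had a median of 0.21 and 19 of 23 positive. The median became 0.60 without the library labelled Kcnip3 KO-5xFAD 2 and -0.48 without Kcnip3 KO-5xFAD 1. Its sign changed in 3 of the 23 alternative settings and left-out libraries tried. Ifi44, an interferon-induced gene, was at 1.02, 0.142 and 0.634 CPM in the 5xFAD libraries, against 7.10, 0.445 and 1.47 CPM in those of Kcnip3 KO-5xFAD.

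Genes of the mitochondrial genome that encode respiratory chain subunits had a positive log2 fold change in 10 of 10 tested, with a median of 0.41 and 6 at an unadjusted p under 0.05, or 0.29 and 3 leaving out the library labelled Kcnip3 KO-5xFAD 2. The share of counts from mitochondrial genes given above moves with the groups in the same way. The NADH dehydrogenase subunit mt-Nd5 was at 1704, 1633 and 1684 CPM in the 5xFAD libraries, against 2411, 2664 and 2021 CPM in those of Kcnip3 KO-5xFAD (0.50 ± 0.11, adjusted p = 0.29 in edgeR). For sterol synthesis the median was 0.18 and 3 of 18 genes were higher at that p, or 0.28 and 8 genes leaving out the library labelled Kcnip3 KO-5xFAD 2. Insig1, which restrains sterol synthesis, was at 41.9, 33.6 and 39.5 CPM in the 5xFAD libraries, against 62.8, 38.1 and 56.1 CPM in those of Kcnip3 KO-5xFAD. The unfolded protein response list had a median of -0.060.

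Immature neurons were marked by 12 tested genes, of which 3 had a higher level at an unadjusted p under 0.05, with a median of 0.11. Dcx, the microtubule protein of migrating neuroblasts, was at 12.1, 8.79 and 10.5 CPM in the 5xFAD libraries, against 30.9, 12.1 and 14.9 CPM in those of Kcnip3 KO-5xFAD (log2 fold change 0.88 ± 0.31, adjusted p = 0.438 in edgeR). Eomes, the transcription factor of intermediate progenitors, was at 0.762, 0 and 0.0905 CPM and at 16.4, 2.89 and 2.58 CPM (adjusted p = 0.411), and Igfbpl1 at 0.381, 0 and 0.543 CPM and at 3.55, 1.22 and 2.46 CPM (adjusted p = 0.323). The highest value of each was in Kcnip3 KO-5xFAD 1, without which Dcx had 0.36. The groups did not overlap, as for 16.3% of all tested genes, and Dcx was separated only beyond the digits given (12.1 CPM in 5xFAD 1 and in the library labelled Kcnip3 KO-5xFAD 2). These 3 genes had the smallest p of the list, so the lack of overlap adds no support. Mki67, a proliferation marker, had 0.14 ± 0.40 and the progenitor factor Sox2 0.14 ± 0.16.

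Markers of other tissue in the dissection differed between libraries. The summed level of 14 choroid plexus genes was 7372, 352 and 10260 CPM in the 5xFAD libraries, against 555, 649 and 5412 CPM in those of Kcnip3 KO-5xFAD, and their median log2 fold change was -1.06 with 14 of 14 negative, none at an unadjusted p under 0.05. Ttr, the transthyretin of the choroid plexus, was at 5899, 203 and 8724 CPM and at 341, 371 and 4252 CPM. Their part in the other results was not tested. Other marker lists had medians of 0.17 for dentate granule neurons (-0.13 without the library labelled Kcnip3 KO-5xFAD 2), -0.087 for CA1 to CA3 pyramidal neurons, -0.060 for astrocyte identity, -0.051 for oligodendrocytes and myelin, -0.13 for endothelial and mural cells, 0.35 for meningeal fibroblasts, 0.099 for cortical, striatal and thalamic neurons and 0.44 for blood cells (8 of 14 tested). Leaving out the same library, those of blood cells, pyramidal neurons, oligodendrocytes and endothelial cells were 0.14, -0.20, -0.14 and -0.23, and that of choroid plexus -0.76. Members of these neuron lists went both ways. Of the pyramidal neuron genes, Cdh24 had -0.54 ± 0.15, Fibcd1 -0.50 and Elavl2 0.60, with 1 higher and 1 lower at an unadjusted p under 0.05. In the cortical, striatal and thalamic list, the cortical projection neuron factor Fezf2 had -0.50 ± 0.16, Rorb 0.53 and Calb2 1.02. There 2 were higher and 1 lower at that p. The excitatory neuron markers Camk2a, at 3104, 4309 and 3545 CPM and at 2774, 4027 and 2892 CPM, and Slc17a7, at 1616, 2303 and 1901 CPM and at 1599, 1837 and 1611 CPM, were abundant in every library of the comparison.

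**Figure D5:**
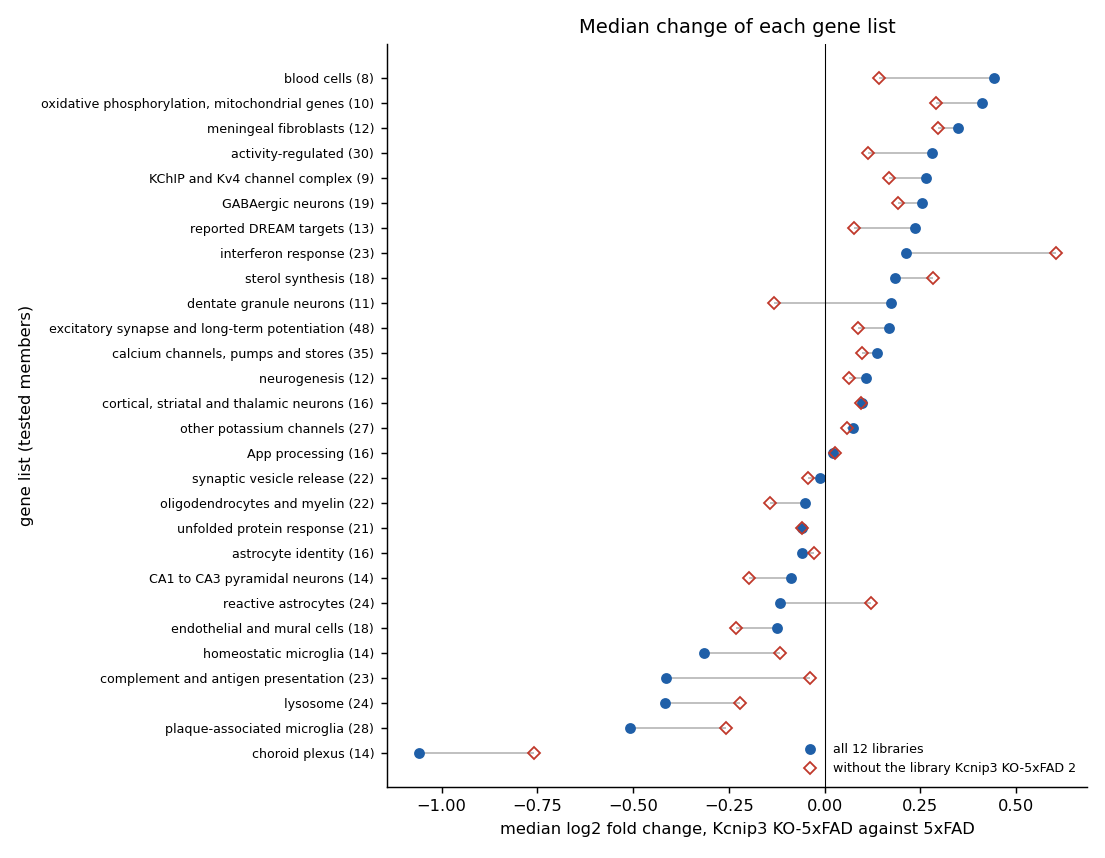
Median log2 fold change in Kcnip3 KO-5xFAD against 5xFAD (horizontal axis) of each gene list (vertical axis, tested members in brackets), with all 12 libraries (blue circles) and leaving out the library labelled Kcnip3 KO-5xFAD 2 (open red diamonds). Choroid plexus has the lowest median, -1.06, the microglial, complement and lysosomal medians move toward 0 without that library, and those of reactive astrocytes and dentate granule neurons change sign.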

How the data were processed

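RNA-seq libraries from hippocampus (TruSeq mRNA kit, per the labels' protocols) of 4 genotypes with 3 libraries each were used. The authors deposited raw counts for 55385 genes, and log2 TPM values for 16120 genes that served for levels between genes and as an alternative. Alignment with HISAT2 2.1.0 to mm10, featureCounts, FastQC 0.11.9, and edgeR 3.38.4 in R 4.2.1 stand in the submitters' processing notes. The strand setting and the annotation were not given in the sources used here, so overlapping and antisense genes cannot be told apart. Symbols and positions for 55144 genes came from GENCODE M21 (GRCm38); the rest held 0.00278% of counts.

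The 12 libraries entered 1 fit in edgeR 4.0.16 (R 4.3.3) with a coefficient per genotype, TMM, filterByExpr and the robust quasi-likelihood test, with Benjamini-Hochberg adjustment over 15905 genes and 0.05 as threshold. Its common biological coefficient of variation was 0.144. The fit was also run on simulated counts, with an outcome not reported here. They gave every gene the same spread and held no library against its label, so they do not cover those features of the data. List members are described by counts and medians, with no test.

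The members and lists were chosen with earlier results of these data known. Named were Kcnip3, Thy1 and App, the called genes and their copies, the 10 uncalled genes with the smallest p at 1 CPM or more, the KChIP and Kv4 genes, and the 3 smallest p of each other list; other genes were chosen after their values were seen. Some of the genes that this rule takes are given only within counts and medians or are not reported here.

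Alternatives were DESeq2 1.42.0 (test and size factors), limma 3.58.1 (voom, and on log2 TPM), library size only, no filter, a filter of 50 counts in 3 libraries, only the groups compared, a replicate block, other windows and leaving out libraries. Sequences came from RefSeq on GRCm38.p6 and GENCODE M21.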

Additional observations from a re-analysis of the deposited data

How the results depend on the processing

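The direction of each of the 11 called genes was the same in every setting that could be fitted. Eif3j1, Eif3j2, Gm3650, Pcna-ps2 and Pla2g4e passed in 23 of 23 settings, Mfap1b missed the threshold in 1, Ivd in 3, Strc in 7, Bub1b in 8, Lbhd2 in 8 and Tgm7 in 14. Genes higher and lower (5 and 6) were 200 and 151 with no filter and 16 and 13 in DESeq2, which called 10 of the 11. With the stricter filter, which tests 12251 genes, 3 were lower, and with both WT 3 and Kcnip3 KO-5xFAD 2 left out, 1 was lower. Within 10 Mb of Kcnip3 (7) there were 18 with no filter, 4 with the stricter filter, 2 without those libraries and 0 in a window of 5 Mb. The interaction (0) had 272 with no filter, 6 in DESeq2 and 1 without those libraries, and Kcnip3 KO against WT (8) had 324 with no filter, 29 in DESeq2 and 15 with only the groups compared. With no filter 0 of 31787 genes had finite prior degrees of freedom, against a median of 6.3 with the filter, and 9 of the 351 calls were genes not tested otherwise. The cause of these differences was not tested. Leaving out 1 library at a time gave 4 to 5 higher, 2 to 7 lower, 3 to 7 within 10 Mb, 0 to 4 for the interaction and 7 to 13 in Kcnip3 KO against WT. The fewest lower calls came without 5xFAD 3 or Kcnip3 KO-5xFAD 3, the most for the interaction without 5xFAD 1, and the 13 without Kcnip3 KO 2. Where a group keeps 2 libraries, their spread is taken with that of the other groups.

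The replicate numbers are names without a stated pairing, and same-numbered deviations correlated at -0.035, 0.246 and 0.164, with 3 of 12 libraries closest to their own number. A replicate block gave 10 calls, 9 of them among the 11, 5 within 10 Mb, and 1 for the interaction. Of 95 named genes that did not pass, 92 kept their sign in every setting, and 11 passed in at least 1 setting with a filter. Most of the 95 were named for a small p in these same libraries, so a kept sign adds no support for them. The same counts over all tested genes were not made. Kcnip2, Dpp6 and Kcnd1, whose sign changed, belong to the KChIP and Kv4 list, which was named in full. The medians of complement genes, plaque-associated microglia and interferon genes moved by more than the spread between libraries without Kcnip3 KO-5xFAD 1 (to -0.878, -0.92 and -0.477), and that of meningeal fibroblasts did without 5xFAD 1 (to 0.977). The median of all genes moved by under 0.1 with any scaling. Kcnip3 passed in 5 of 23 settings, with log2 fold changes of -1.06 to -0.88 over all of them.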

Other observations

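Some transcripts outside the gene lists passed in DESeq2 and not in edgeR, and are given as values chosen by that test. Ttll7, a tubulin polyglutamylase, was at 71.0, 59.7 and 60.5 CPM in the 5xFAD libraries, against 87.5, 88.5 and 94.7 CPM in those of Kcnip3 KO-5xFAD (DESeq2 log2 fold change 0.50, adjusted p = 0.031, edgeR adjusted p = 0.255). Cadps, which primes dense-core vesicles for release, was at 123, 101 and 114 CPM and at 155, 153 and 145 CPM (0.42, DESeq2 adjusted p = 0.0268). Hook1, a microtubule linker of endosomes, was at 20.2, 15.3 and 15.8 CPM and at 26.3, 27.6 and 29.8 CPM (0.70, DESeq2 adjusted p = 0.0398). S1pr1, a receptor for sphingosine 1-phosphate, was at 91.8, 71.5 and 87.0 CPM and at 122, 124 and 103 CPM (0.47, DESeq2 adjusted p = 0.0296). Of those with a lower level, Pigs, a subunit of the GPI transamidase, was at 89.3, 90.1 and 86.1 CPM and at 68.0, 69.6 and 72.6 CPM (-0.34, DESeq2 adjusted p = 0.0314), and Clu, the extracellular chaperone clusterin, was at 1778, 2298 and 2010 CPM and at 1661, 1423 and 1472 CPM (-0.42, DESeq2 adjusted p = 0.0398). None of these 6 had overlapping groups, nor had 2599 of all 15905 tested genes (16.3%). The 6 were chosen by a test on the same libraries, so their lack of overlap adds no support.

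Gm3375, on chromosome 7, had levels of 0.889, 1.13 and 0.634 CPM in the 5xFAD libraries, against 31.2, 58.2 and 2.09 CPM in those of Kcnip3 KO-5xFAD, so 2 libraries carried the difference (DESeq2 adjusted p = 0.0226, edgeR adjusted p = 0.426). Gm12751 was at 3.69 to 3.94 CPM in 5xFAD, at 2.78 CPM in Kcnip3 KO 2, and at 0.345 CPM or less in the other libraries.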
